A study of Mus musculus with 9 samples.

Results

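The 10 genes Sod1, Sod2, Sod3, Cat, Gpx1, Gpx3, Gpx4, Prdx1, Prdx3 and Prdx5 encode enzymes that remove superoxide and peroxides. They were taken by symbol, and all 10 were present in each of the 9 kidney matrices, which together list 32427 genes. Their mRNA was followed by mouse, by group and by cell type, the types being clusters of cells named from marker genes. None of the 10 was among the variable genes from which the clusters were made.

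Superoxide leaks mainly from the mitochondrial respiratory chain and from oxidases in membranes, and superoxide dismutases turn it into hydrogen peroxide. Catalase then splits hydrogen peroxide into water and oxygen, and the glutathione peroxidases and peroxiredoxins reduce hydrogen peroxide and organic peroxides with electrons that come mainly from glutathione or thioredoxin. The proximal tubule of the kidney is dense in mitochondria and peroxisomes, and cisplatin, a platinum anticancer drug, is taken up by its cells.

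Single cells from the kidneys of 9 male C57BL/6 mice were sequenced by a droplet method. The mice were 6 weeks old at the start, and each group held 3 mice with 1 library per mouse. Control mice received intraperitoneal saline. AKI-CKD mice received 4 weekly intraperitoneal injections of cisplatin at 8 mg/kg, a model of acute kidney injury that passes into chronic kidney disease. AKI-CKD + EGT mice received the same cisplatin and, from before the first injection, 0.5 mg/mL ergothioneine (EGT, a sulfur-containing antioxidant of the diet) in drinking water. All kidneys were taken after 8 weeks, so the AKI-CKD + EGT group differs from Control in both agents, and EGT without cisplatin was not among the groups.

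The libraries held 70106161 to 101525691 UMIs (unique molecular identifiers, counts of captured mRNA molecules) each, and 196925 of 216680 barcodes were kept, with a median of 2714 UMIs per cell. Of the kept cells, 155230 were proximal tubule (PT) cells, 12688 distal convoluted tubule (DCT) cells and 7262 loop of Henle (LOH) cells, and 10 further types were named. Pairs of libraries shared 3583 to 7810 barcode names, which are serial numbers given in each library and do not identify cells. Mitochondrially encoded mRNA made up 1.55% to 6.39% of the UMIs of kept cells, and the highest share was that of AKI-CKD + EGT mouse 3, which also lost 27.7% of its cells to the mitochondrial limit. A cluster of 5471 cells led by haemoglobin mRNA, 46.9% of it from 1 library, and a cluster of 436 cells led by interferon-induced mRNA were left unnamed. All 19 PT markers were detected in PT cells, where their summed level was 79277 to 146601 CPM (UMI counts of a gene scaled to a common library total) per mouse, and all 10 LOH markers were detected in LOH cells at 6526 to 16235 CPM. PT markers summed to 33467 to 91806 CPM in LOH cells, so much PT mRNA was read there too, and the LOH values below are given beside genes that mark PT.

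The RefSeq table of build GRCm38.p6 held 12 promoters of 9 of the 10 genes, 4 of them of Gpx4, and Sod3 was not listed there. The 250 bases before each start were searched on both strands for the core of the antioxidant response element, TGACNNNGC, the sequence to which the oxidative stress factor NRF2 is known to bind. It was found in 2 of these 12 promoters, those of Sod1 and Prdx1, and in 3338 of 32851 promoters of that length overall (10.2%). Both sequences are printed 5′ to 3′ on the strand of the gene, with the matched letters, which lie on the opposite strand, in capitals. The Sod1 window is chr16:90220512-90220761 and the match begins at position -56 from the start. The Prdx1 window is chr4:116685349-116685598 and the match begins at position -133.
Sod1: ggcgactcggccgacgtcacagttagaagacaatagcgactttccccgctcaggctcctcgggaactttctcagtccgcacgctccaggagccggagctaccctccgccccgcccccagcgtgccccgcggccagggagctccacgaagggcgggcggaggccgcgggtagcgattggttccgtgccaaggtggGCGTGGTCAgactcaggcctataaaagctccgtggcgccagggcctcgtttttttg
Prdx1: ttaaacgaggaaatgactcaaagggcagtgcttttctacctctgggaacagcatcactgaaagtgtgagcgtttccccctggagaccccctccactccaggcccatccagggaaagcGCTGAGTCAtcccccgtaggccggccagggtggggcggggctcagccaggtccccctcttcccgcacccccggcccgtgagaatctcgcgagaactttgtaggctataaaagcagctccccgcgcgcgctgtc
A match describes the letters in these windows only. The matrices were made on build GRCm39, and no coordinate of that build was used.

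Levels across cell types were compared as CPM of all UMIs of a mouse and type, over 13 named types and 9 mice, as a description without a test. CPM values are compared between types for 1 gene and not between genes, because mRNA length and capture differ between genes. For each of the 10 genes, the type with the highest mean lay above the type with the lowest mean in 9 of 9 mice. The ratio of those means was smallest for Prdx3 (1.60) and largest for Gpx3 (2.98). Between neighbours in the order the difference was mostly smaller than the spread between mice, since at most 2 of the 12 neighbouring pairs of any gene were ordered the same way in 8 or more mice.

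**Figure D1:**
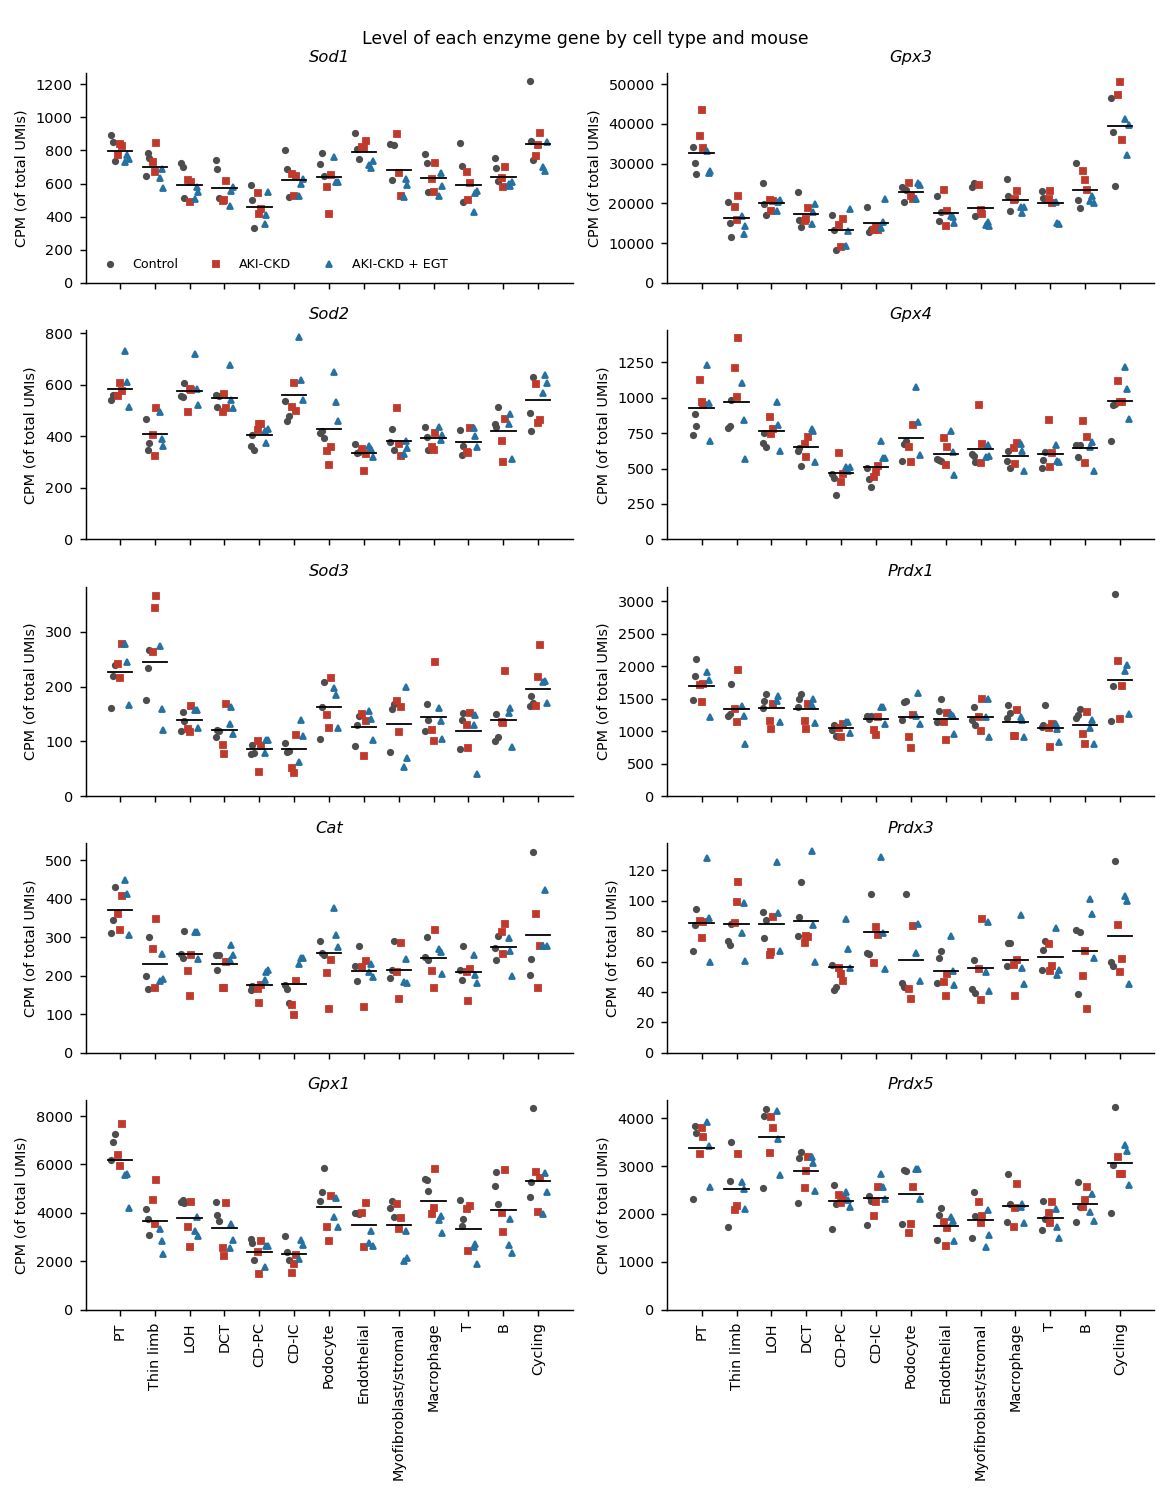
CPM of all UMIs for each of the 10 genes in the 13 named cell types, on a linear axis, with 1 point per mouse coloured by group and a bar at the mean of 9 mice. At most 1 type has a higher mean than PT for 9 of the 10 genes and 2 types have one for Gpx4, and endothelial or collecting duct cells lie last for every gene.

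For each superoxide dismutase the PT level lay at the top of the order or within the spread of the highest type. Sod1, the copper and zinc enzyme of the cytosol, had 839 ± 163 CPM (SD, n = 9 mice) in cycling cells, 797 ± 58.2 in PT and 788 ± 70.9 in endothelial cells, and 459 ± 90.6 in collecting duct principal (CD-PC) cells. Endothelial cells lay above PT in 4 of 9 mice, so these types were not separated for Sod1. Sod2, the manganese enzyme of the mitochondrial matrix, had 584 ± 63.1 CPM in PT and 577 ± 63.4 in LOH, and it was close to these in intercalated (CD-IC) cells at 560.1 ± 101 and in DCT at 547 ± 55.0. Endothelial cells had the lowest Sod2 mRNA, with 336 ± 30.2 CPM, below PT in 9 of 9 mice. Sod3, the secreted enzyme of the extracellular space, had 245 ± 81.8 CPM in thin limb cells, 227 ± 41.4 in PT and 85.1 ± 18.6 in CD-PC cells.

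Catalase, the peroxisomal enzyme that splits hydrogen peroxide, had its highest Cat level in PT, with 371 ± 54.6 CPM, and its lowest in CD-PC cells, with 177 ± 25.8. In LOH the Cat level was 257 ± 55.0 CPM and in DCT 230.1 ± 39.2 CPM, below PT in 9 of 9 mice in both.

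Among the glutathione peroxidases, Gpx1, the selenoenzyme of cytosol and mitochondria, had 6198 ± 1045 CPM in PT and 2311 ± 489.7 in CD-IC cells. PT lay above every other type except cycling cells in 9 of 9 mice for Gpx1. Gpx3, the plasma enzyme that the proximal tubule secretes, had 39528 ± 8179 CPM in cycling cells and 32746 ± 5296 in PT. Cycling cells lay above PT for Gpx3 in 8 of 9 mice, and PT above the next type, B cells with 23277 ± 4011, in 9 of 9. In B cells none of the 10 enzymes lay above every one of 13 PT genes, as given below. The part of PT mRNA in the Gpx3 level of B cells was not tested. Gpx4, which reduces lipid peroxides within membranes, had 976 ± 150.0 CPM in cycling cells, 967 ± 255 in thin limb cells and 928 ± 174 in PT. These 3 types were not separated for Gpx4, whereas PT lay above LOH, with 764 ± 109 CPM, in 9 of 9 mice.

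The peroxiredoxins held the gene with the smallest range across types, Prdx3, and the 1 gene whose level was above that of PT in another tubule in every mouse. Prdx5, a peroxiredoxin of mitochondria, peroxisomes and cytosol, had 3599 ± 608 CPM in LOH and 3380 ± 573 in PT, and LOH lay above PT in 9 of 9 mice. Its lowest level was 1737 ± 272 CPM in endothelial cells. Prdx1, the cytosolic peroxiredoxin, had 1791 ± 604 CPM in cycling cells, 1692 ± 273 in PT and 1043 ± 91.1 in CD-PC cells. Prdx3, the peroxiredoxin of the mitochondrial matrix, had the fewest UMIs of the 10, and its levels in DCT (86.5 ± 22.4 CPM), PT (85.5 ± 19.3), thin limb (84.7 ± 16.2) and LOH (84.3 ± 19.3) lay within the spread between mice.

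Free RNA from broken cells can enter every droplet, so the levels outside PT were read against 13 genes that mark PT, such as Kap, Miox and Lrp2. Summed, these 13 genes reached 0.332 of their PT level in CD-IC cells, 0.333 in CD-PC, 0.467 in T cells, 0.507 in DCT, 0.575 in LOH and 0.683 in podocytes. A ratio to PT within those of the PT genes was treated as background and was not read as expression of that type, except where a single PT gene was itself raised, as given below. By the mean of 9 mice, 9 of the 10 enzymes lay above every one of the 13 PT genes in LOH and 9 in DCT, 8 each in CD-IC, CD-PC, endothelial and myofibroblast/stromal cells, 6 in T cells, 1 each in cycling cells and podocytes, and 0 in B cells, macrophages and thin limb cells. In those last 3 types 1 PT gene, Napsa, was itself at 1.06, 0.907 and 3.35 of its PT level.

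**Figure D2:**
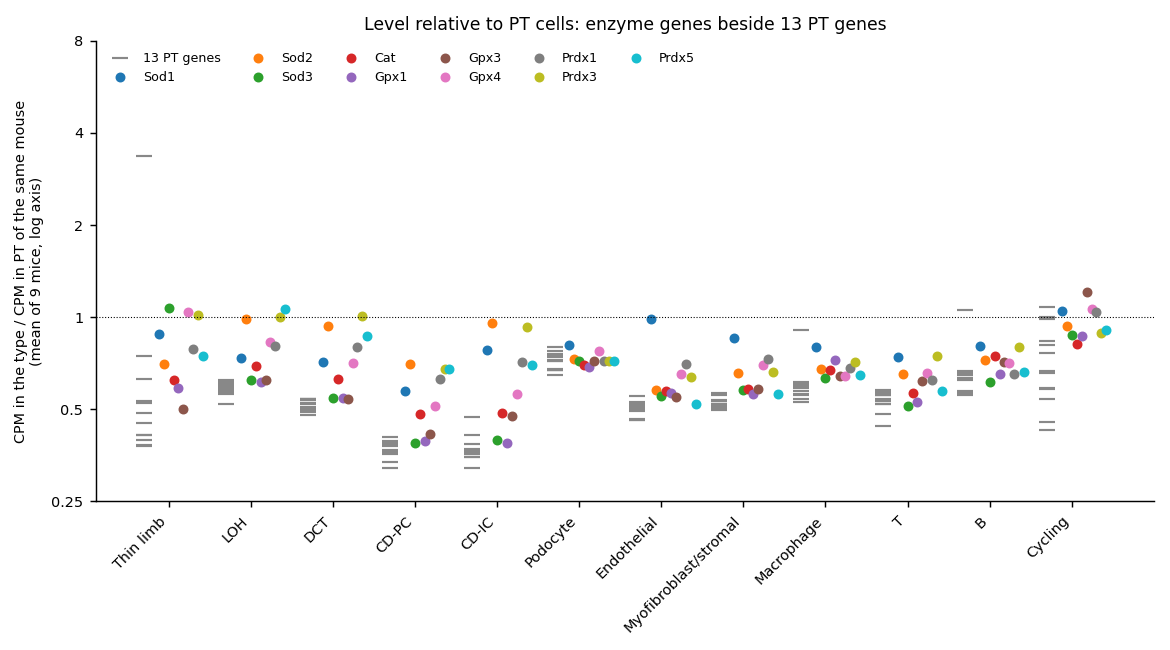
Ratio of the level in a cell type to the level in PT of the same mouse, as a mean of 9 mice on a log axis, for the 10 enzymes and for the 13 PT genes in each of 12 types. In LOH and DCT most enzymes lie above all PT genes, with Prdx5 at 1.07 in LOH and Prdx3 at 1.01 in DCT, whereas Sod3, Gpx1 and Gpx3 lie near them.

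Sod2, Prdx3 and Prdx5 had the highest ratios in LOH and in DCT. In LOH the ratio to PT was 0.989 for Sod2, 1.000 for Prdx3 and 1.07 for Prdx5, against at most 0.623 for a PT gene. In DCT the ratio was 0.939 for Sod2, 1.01 for Prdx3 and 0.865 for Prdx5, against at most 0.542. In CD-IC cells the ratio was 0.955 for Sod2, 0.929 for Prdx3 and 0.697 for Prdx5, against at most 0.471. Sod2, Prdx1, Prdx3 and Prdx5 lay above every PT gene in 9 of 9 mice in each of LOH, DCT, CD-IC and CD-PC cells.

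In endothelial cells Sod1 had the highest ratio of the 10 enzymes, 0.989 against at most 0.553 and above every PT gene in 9 of 9 mice. Gpx4 lay above every PT gene in 9 of 9 mice in LOH (0.830), DCT (0.709) and CD-PC cells (0.513), and Cat did so in DCT (0.627). Sod3, Gpx1 and Gpx3 were the closest to the PT genes in LOH and DCT. The Sod3 ratio was 0.624 in LOH and 0.543 in DCT, above every PT gene in 2 of 9 mice in either type. Gpx1 exceeded all of them, by the mean, in 2 of 12 types, and its LOH ratio of 0.613 lay within theirs. The Gpx3 ratio was 0.625 in LOH and 0.539 in DCT, and it exceeded every PT gene in 1 of 9 mice in either type. In DCT the Gpx1 ratio was 0.545, above every PT gene in 2 of 9 mice. The levels of these 3 enzymes in LOH and DCT were thus at or near the background of PT mRNA and were not read as expression of those cells.

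Within PT the enzymes followed the segments in opposite directions. PT-S1 cells (73174, the first segment) and PT-S3 cells (30815, the straight last segment) were told apart from their own markers. Gpx3 had 46074 ± 6050 CPM in PT-S1 and 17088 ± 2185 in PT-S3 (SD, n = 9 mice), a ratio of 2.70 that ran from 2.56 to 2.83 between mice. PT-S1 was therefore above PT-S3 in 9 of 9 mice for Gpx3, and also for Sod2, which had 608 ± 70.9 CPM in PT-S1 and 551 ± 51.0 in PT-S3. The other 8 enzymes were higher in PT-S3. The ratio of PT-S1 to PT-S3 was 0.762 for Sod1, 0.804 for Sod3, 0.805 for Cat and 0.843 for Prdx1, and 0.898 to 0.919 for Gpx1, Gpx4, Prdx5 and Prdx3. PT-S3 was the higher in 9 of 9 mice for 7 of these 8 and in 8 of 9 for Prdx3.

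The genes whose pattern was most like that of each enzyme were found by Pearson's r of log2(CPM + 1) over 13 types in 9 mice, 117 points that share libraries, depth and free RNA, among 2861 genes with a mean of at least 50 CPM. For Gpx3 they were Slc5a2, the glucose transporter of the first segment (r = 0.889), and Ftl1, a ferritin chain (r = 0.883). For Gpx1 it was Cda (r = 0.881), for Cat Akr1c21 (r = 0.868) and Rida (r = 0.861), and for Sod3 Folr1 (r = 0.839) and Amn (r = 0.821). The pattern of Sod2 was most like those of Suclg1 (r = 0.827) and Mdh1 (r = 0.825), that of Prdx5 like those of Mpc1 (r = 0.802) and Cisd1 (r = 0.800), and that of Prdx3 like those of C1qbp (r = 0.648) and Atp5pb (r = 0.629). Prdx1 was most like Bphl (r = 0.838) and Gclm (r = 0.832), Gpx4 like Esd (r = 0.813) and Dbi (r = 0.808), and Sod1 like Calml4 (r = 0.643) and Glul (r = 0.638).

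The comparison of AKI-CKD with Control asks what cisplatin left behind in these cells, and that of AKI-CKD + EGT with AKI-CKD what EGT added. Below, "in AKI-CKD" stands for the first and "with EGT" for the second. Both use the same 3 AKI-CKD mice, so their values are given side by side and are not independent. In PT cells, 9 of the 10 enzymes had a log2 fold change above 0 in AKI-CKD and all 10 had one below 0 with EGT, but none was called in either comparison. UMIs were summed per mouse, the level given is CPM on library sizes scaled by TMM (trimmed mean of M values), and the test is edgeR's quasi-likelihood F test with Benjamini-Hochberg adjustment over 17942 genes, a gene being called at an adjusted p under 0.05. Of all genes 0.0446% were called in AKI-CKD against Control, and 0% when EGT was added. At an unadjusted p under 0.05 the enzymes numbered 0 and 3, beside 11.4% and 15.4% of all genes, and DESeq2 called 0 and 1. In PT the sums behind a value ran from 2408 UMIs of Prdx3 to 2959820 of Gpx3 per mouse, so the spread between mice and not counting set the error.

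Gpx3 mRNA in PT was 32228, 32061 and 27886 CPM in Control mice 1, 2 and 3, 38549, 46389 and 38234 in the AKI-CKD mice, and 32841, 26235 and 23178 in the mice given EGT as well. Each AKI-CKD mouse lay above each Control mouse and above each AKI-CKD + EGT mouse. The log2 fold change was 0.42 (SE 0.22, edgeR adjusted p = 0.472) in AKI-CKD and -0.58 (SE 0.22, edgeR adjusted p = 0.262) with EGT. Gpx3 was the enzyme that DESeq2 called with EGT (adjusted p = 0.0219), among 449 genes that it called in all.

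Gpx4 in PT was 695, 944 and 819 CPM in Control, 1174, 1028 and 1070 in AKI-CKD and 1220, 915 and 572 in AKI-CKD + EGT mice. AKI-CKD did not overlap with Control, but the AKI-CKD + EGT mice ran from the lowest to the highest value of the 9. Its log2 fold change was 0.41 (SE 0.24, edgeR adjusted p = 0.512) in AKI-CKD and -0.27 (SE 0.24, edgeR adjusted p = 0.607) with EGT. Gpx3 and Gpx4 were the 2 enzymes whose AKI-CKD mice all lay above the Control mice, as did 11.6% of all genes.

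Gpx1 in PT was 5842, 7397 and 7423 CPM in Control, 6679, 6330 and 8661 in AKI-CKD and 5514, 5324 and 3473 in AKI-CKD + EGT mice. Control and AKI-CKD overlapped, and each AKI-CKD + EGT mouse lay below both groups. The log2 fold change was 0.07 (SE 0.23, edgeR adjusted p = 0.922) in AKI-CKD and -0.60 (SE 0.23, edgeR adjusted p = 0.266) with EGT.

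Sod1 in PT was 845, 909.8 and 755 CPM in Control, 803, 889.9 and 934 in AKI-CKD and 726, 732 and 618 in AKI-CKD + EGT mice. The AKI-CKD + EGT mice were the 3 lowest of the 9. Its log2 fold change with EGT was -0.34 (SE 0.15, edgeR adjusted p = 0.307), against 0.07 (SE 0.15) in AKI-CKD. Sod1, Gpx1 and Gpx3 were the 3 enzymes whose AKI-CKD + EGT mice all lay below the AKI-CKD mice, as did 11.1% of all genes.

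Cat in PT was 294, 369 and 440.2 CPM in Control, 376, 339 and 459 in AKI-CKD and 446, 391 and 254 in AKI-CKD + EGT mice, and the 3 groups overlapped. Its log2 fold changes were 0.09 (SE 0.23) in AKI-CKD and -0.11 (SE 0.23) with EGT. The other 5 enzymes overlapped between groups in both comparisons as well. Their log2 fold changes in AKI-CKD ran from -0.07 (SE 0.25) for Prdx1 to 0.33 (SE 0.26) for Sod3, and with EGT from -0.31 (SE 0.27) for Prdx5 to -0.04 (SE 0.28) for Prdx3. Each of these differences was within 2 standard errors of 0.

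**Figure D3:**
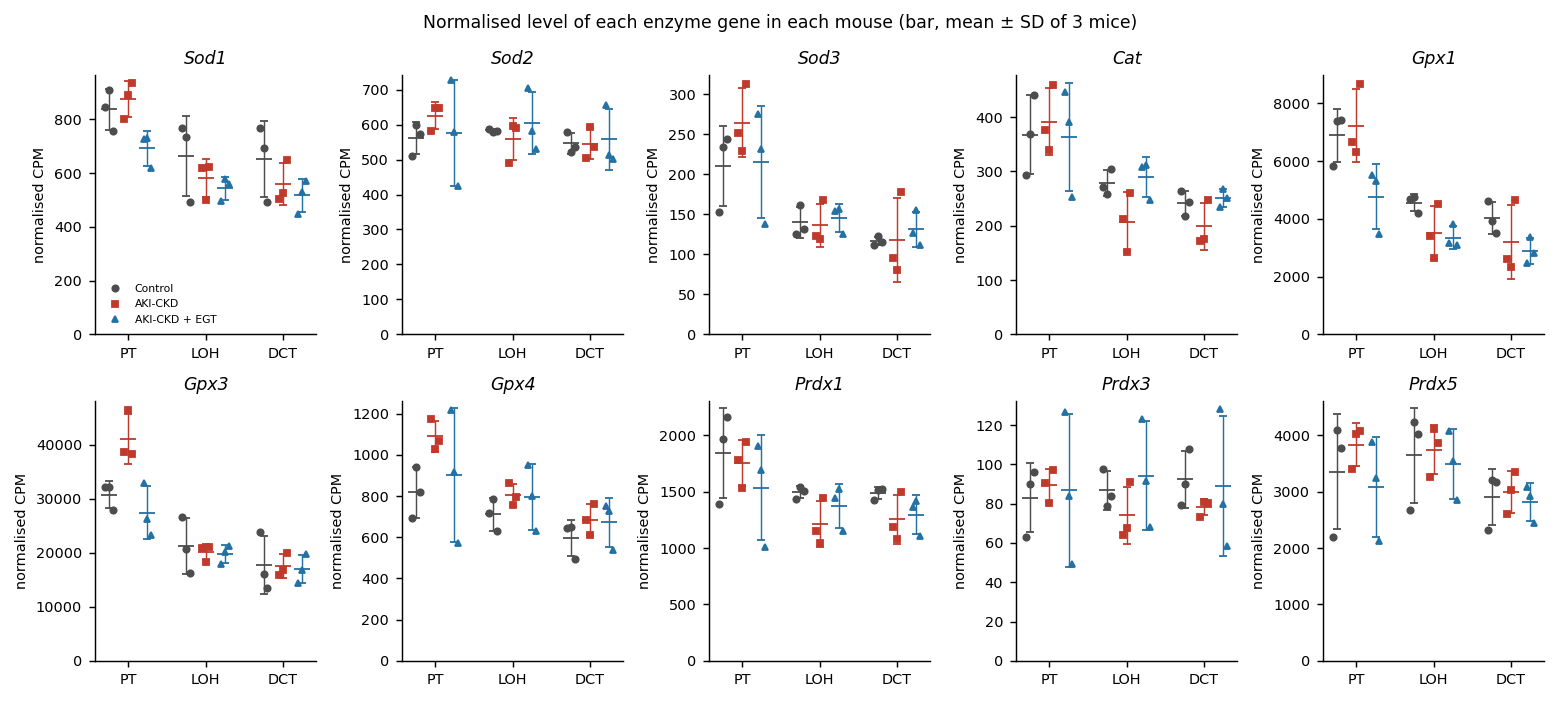
TMM-scaled CPM of each of the 10 enzymes in PT, LOH and DCT cells, 1 panel per gene and 1 point per mouse, with the 3 groups side by side and bars for the mean ± SD of 3 mice. In PT cells AKI-CKD + EGT mouse 3 is the lowest of the 9 mice in all 10 panels.

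AKI-CKD + EGT mouse 3 had the lowest PT level of the 9 mice for all 10 enzymes, and Prdx3, for example, was 127, 84.1 and 49.3 CPM in the 3 AKI-CKD + EGT mice. It was also the library with the highest mitochondrial share over kept cells, 6.39%, beside 6.08% in Control mouse 1. In PT cells mitochondrially encoded mRNA was higher in Control mouse 1, as given below. Without AKI-CKD + EGT mouse 3 the log2 fold change with EGT was above 0 for Sod2 (0.07), Cat (0.11), Prdx1 (0.05) and Prdx3 (0.25), whereas it was -0.46 for Gpx3, -0.40 for Gpx1 and -0.25 for Sod1. For Sod3, Gpx4 and Prdx5 it was -0.05, -0.02 and -0.09. Markers of other tubule cells were also highest in its PT cells. The 10 DCT markers summed there to 388, 416 and 222 CPM in AKI-CKD and 584, 759 and 1824 in AKI-CKD + EGT mice, and the 9 CD-PC markers to 42.6, 47.4 and 34.4 and 64.1, 93.2 and 108, without overlap in either. The LOH and CD-IC markers, at most 692 CPM, did not overlap either and were likewise higher with EGT, beside 79277 to 146601 CPM of PT markers over the 9 mice. The part of these markers and of that mouse's mitochondrial share in the enzymes' values was not tested. In AKI-CKD against Control the signs of the small values also rested on single mice, since without Control mouse 1 the log2 fold change was below 0 for Cat (-0.05), Prdx3 (-0.06) and Prdx5 (-0.04), without AKI-CKD mouse 3 for Gpx1 (-0.08), and without Control mouse 3 it was above 0 for Prdx1 (0.06).

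The values of the enzymes stood beside those of other groups of genes in PT. The median log2 fold change of the 10 enzymes was 0.13 in AKI-CKD and -0.29 with EGT, beside -0.01 and -0.01 over all genes tested. That of 83 ribosomal protein genes was 0.39 and -0.46, that of 80 nuclear genes of oxidative phosphorylation 0.30 and -0.39, and that of the 13 mitochondrially encoded genes -0.51 and 0.61. Of the ribosomal protein genes 81 of 83 lay above 0 in AKI-CKD and 0 of 83 with EGT. The summed ribosomal protein level in PT was 68457, 75475 and 69504 CPM in Control, 85651, 93750 and 88160 in AKI-CKD and 79799, 73330 and 69131 in AKI-CKD + EGT mice, and that of the mitochondrially encoded genes 59335, 38681 and 14692, 30368, 25729 and 19216 and 34248, 41231 and 55275. The ribosomal protein medians had the signs of the enzymes' medians and the mitochondrially encoded ones the opposite signs, and their part in the enzymes' values was not tested.

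In LOH cells none of the 10 enzymes was called, against 0.0478% of 10456 genes in AKI-CKD and 0.497% with EGT. At an unadjusted p under 0.05 it was 1 enzyme in each, Cat, and DESeq2 called 0 in both. At that unadjusted threshold stood 12% and 15% of all genes. Cat in LOH was 272, 258 and 305 CPM in Control, 212, 152 and 259.7 in AKI-CKD and 309, 312 and 248 in AKI-CKD + EGT mice. The AKI-CKD values overlapped with both other groups through AKI-CKD mouse 3. The log2 fold change of Cat was -0.42 (SE 0.18, edgeR adjusted p = 0.373) in AKI-CKD and 0.48 (SE 0.18, edgeR adjusted p = 0.229) with EGT. The summed level of the 13 PT genes in LOH was 82890, 94117 and 87608 CPM in Control, 55412, 35788 and 68884 in AKI-CKD and 58135, 73990 and 74693 in AKI-CKD + EGT mice. Mitochondrially encoded mRNA in LOH was 36979, 29842 and 24237 CPM in AKI-CKD and 39521, 60131 and 85781 in AKI-CKD + EGT mice. CD-PC markers summed there to 42.1, 59.6 and 35.5 CPM in AKI-CKD and 68.8, 106 and 155 in AKI-CKD + EGT mice, and endothelial markers were at 6.69 to 14.6 and 19.8 to 20.7 CPM in turn. In these 3 measures each mouse given EGT lay above each AKI-CKD mouse. LOH markers summed to 7154, 9398 and 11558 CPM in Control, 16235, 15041.5 and 13391 in AKI-CKD and 14923, 7859 and 6526 in AKI-CKD + EGT mice. DCT markers summed there to 3883, 4731 and 3509, 6466, 8227 and 5268, and 6396, 4052 and 5021 CPM in turn. Both sets were higher in AKI-CKD than in Control without overlap, whereas the 13 PT genes were lower. With EGT both sets overlapped with AKI-CKD. Hspa1a, a heat shock gene from a list kept for tissue dissociation, was called in LOH with EGT. Its log2 fold change was -1.34 (SE 0.28, edgeR adjusted p = 0.0454), and no other gene of that list was called there. In PT the value of Hspa1a with EGT was -1.51 (SE 0.57, edgeR adjusted p = 0.263). The part of all these values in the Cat differences was not tested.

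In DCT cells none of the enzymes was called in either comparison, nor was any of the 11986 genes tested (0% in both). By edgeR 0 enzymes had an unadjusted p under 0.05 in either comparison, beside 9.04% and 13% of all genes, and DESeq2 called 0. The log2 fold changes ran from -0.33 (SE 0.25) for Gpx1 to 0.20 (SE 0.18) for Gpx4 in AKI-CKD, and from -0.14 (SE 0.25) for Gpx1 to 0.34 (SE 0.17) for Cat with EGT.

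**Figure D4:**
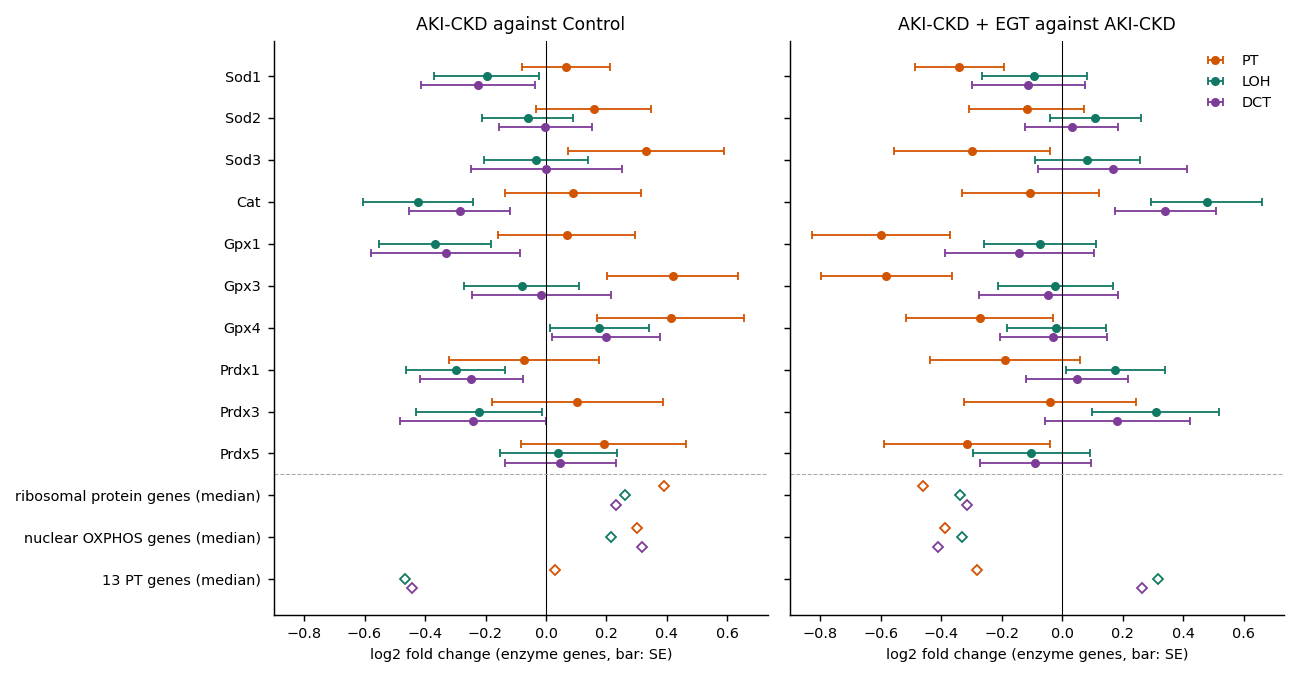
Log2 fold change of each of the 10 enzymes with its standard error in PT, LOH and DCT cells, for AKI-CKD against Control and for AKI-CKD + EGT against AKI-CKD, from fits over 9 mice, with open diamonds for the medians of the ribosomal protein, nuclear oxidative phosphorylation and 13 PT genes. With EGT all 10 PT values lie below 0, while those of LOH and DCT lie on both sides of it.

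Whether the effect of EGT differed between LOH and PT was tested as an interaction, with each mouse as a block. A change of equal size in both types of a library then cancels, and free RNA need not be such a change. With EGT, the log2 fold change in LOH minus that in PT was above 0 for all 10 enzymes, and 3 were called. The difference was 0.58 (SE 0.14, edgeR adjusted p = 0.0238) for Cat. It was 0.51 (SE 0.13, edgeR adjusted p = 0.0294) for Gpx1 and 0.50 (SE 0.14, edgeR adjusted p = 0.0448) for Gpx3, whose LOH levels were not read above as expression of LOH cells. Of 17359 genes, 2.14% were called in this comparison and 0.726% were called higher. The other 7 differences ran from 0.18 for Prdx5 to 0.39 for Sod3 and did not pass.

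The same shift was measured in genes that mark PT. All 13 PT genes had a difference above 0 in this test, from 0.40 to 0.66 with a median of 0.53, and 5 of the 13 were called, beside a median of 0.04 over all genes. The ratio of the LOH level to the PT level of the same mouse was 0.826, 0.712 and 0.738 for Cat in Control, 0.589, 0.468 and 0.626 in AKI-CKD and 0.700, 0.763 and 0.794 in AKI-CKD + EGT mice. AKI-CKD lay below both other groups without overlap. For Gpx1 the ratio was 0.716, 0.654 and 0.605 in Control, 0.534, 0.438 and 0.577 in AKI-CKD and 0.582, 0.684 and 0.722 in AKI-CKD + EGT mice, and for Gpx3 0.738, 0.657 and 0.621, 0.565, 0.412 and 0.608 and 0.549, 0.735 and 0.743. AKI-CKD mouse 2 had the lowest ratio of the 9 mice for all 3 genes. For the sum of the 13 PT genes the ratio was 0.668, 0.627 and 0.572 in Control, 0.473, 0.421 and 0.543 in AKI-CKD and 0.556, 0.631 and 0.685 in AKI-CKD + EGT mice. It was lowest in the same mouse, and its part in the differences of the 3 enzymes was not tested. With library sizes that leave out mitochondrial, ribosomal protein and Malat1 counts Gpx3 was not called (edgeR adjusted p = 0.0633). Without AKI-CKD mouse 2 or without AKI-CKD + EGT mouse 2 none of the 10 enzymes was called, without AKI-CKD + EGT mouse 3 only Gpx3 was, and without AKI-CKD + EGT mouse 1 the number was 5.

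**Figure D5:**
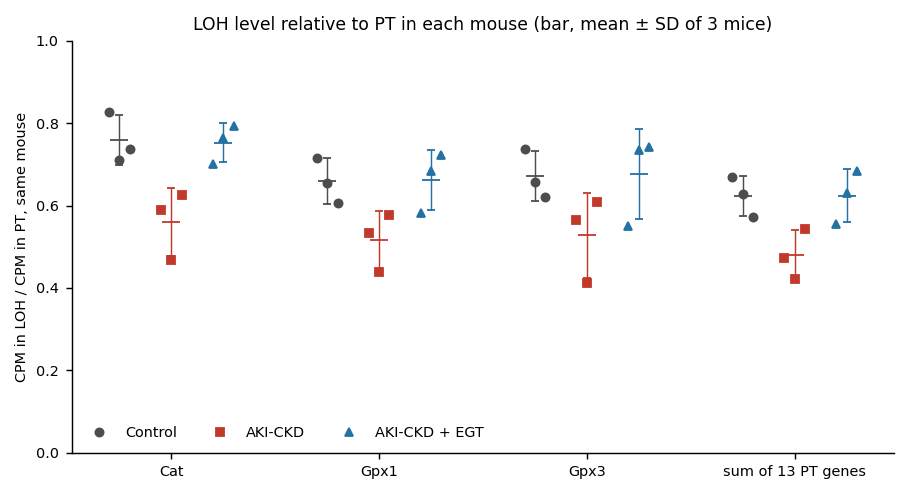
Ratio of the LOH level to the PT level in each mouse for Cat, Gpx1, Gpx3 and the sum of the 13 PT genes, 1 point per mouse with the mean ± SD of the 3 mice of each group. AKI-CKD has the lowest mean in all 4 sets of points, and AKI-CKD mouse 2 is the lowest of the 9 mice in each.

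In AKI-CKD against Control the differences between LOH and PT were below 0 for all 10 enzymes, and none was called, against 0.0634% of 17359 genes. The lowest was -0.56 (SE 0.14, edgeR adjusted p = 0.118) for Cat, and all 13 PT genes lay below 0 too, with a median of -0.47. At an unadjusted p under 0.05, 4 of the 10 enzymes were lower, beside 9.91% of all genes in either direction, and DESeq2 was not run on this test. Between DCT and PT none of the enzymes and none of 17402 genes differed in either comparison at an adjusted p under 0.05 (0%), and 1 enzyme in each had an unadjusted p under 0.05, beside 5.44% of all genes in AKI-CKD and 9.11% with EGT.

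Among the other named types, 1 enzyme in 1 comparison was called, Cat in CD-IC cells, the acid and base transporting cells of the collecting duct. Cat in CD-IC was 186, 168 and 123 CPM in Control, 127, 105 and 198 in AKI-CKD and 234, 249 and 274 in AKI-CKD + EGT mice. Each AKI-CKD + EGT mouse lay above each mouse of the other groups. Cat rose from 143 ± 49.1 to 252 ± 20.4 CPM (SD, n = 3) with EGT, a log2 fold change of 0.85 (SE 0.23, edgeR adjusted p = 0.0458). Of 7897 genes tested there, 4.72% were called and 3.42% called higher. The sums behind Cat were small, 40 to 471 UMIs per mouse, from 77 to 613 cells. The 13 PT genes summed to 58108, 47675 and 21038 CPM in CD-IC of Control, 22058, 15510 and 37046 of AKI-CKD and 32890, 57105 and 65378 of AKI-CKD + EGT mice. The 9 markers of CD-IC cells summed to 8162, 9660 and 12813 CPM in Control, 12740, 12380 and 11718 in AKI-CKD and 11203, 8017 and 4839 in AKI-CKD + EGT mice, so each mouse given EGT lay below each AKI-CKD mouse. The 10 DCT markers summed in these cells to 8649, 16867 and 11892 CPM in Control and 20244.5, 12159 and 12241 in AKI-CKD mice. In AKI-CKD + EGT mice they summed to 17204, 5089 and 7075 CPM. In each group some mice had more DCT than CD-IC marker mRNA in these cells. Mitochondrially encoded mRNA there was 19939, 14518 and 12223 CPM in AKI-CKD and 22361, 48320 and 76647 in AKI-CKD + EGT mice, without overlap. The part of these values in the Cat difference was not tested. The call of Cat was lost with a replicate block, with a mitochondrial limit of 10% and with clusters made without Harmony. No enzyme was called in CD-IC cells in AKI-CKD (0% of all genes). Cat was not called without Control mouse 2, AKI-CKD mouse 1, AKI-CKD mouse 2, AKI-CKD + EGT mouse 2 or AKI-CKD + EGT mouse 3.

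Elsewhere 0 of the enzymes were called by edgeR or by DESeq2, and few other genes were. The share of all genes called was 0.0219% in AKI-CKD and 0% with EGT in CD-PC cells, 0% and 0.00964% in endothelial cells, and 0.0244% and 0.122% in myofibroblast/stromal cells. In macrophages it was 0.0445% in AKI-CKD and 0.0111% with EGT, in T cells 0.0879% and 0%, and in B cells and cycling cells 0% in both. At an unadjusted p under 0.05 the enzymes of these 7 types numbered 0 in AKI-CKD and 0 to 2 with EGT, beside 4.63% to 15.1% and 2.98% to 12.6% of all genes.

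Across the 13 types, the sign of a value was the same in most types for some enzymes, though all types share the same mice and free RNA. Gpx4 had a log2 fold change above 0 in 13 of 13 types in AKI-CKD, from 0.12 in podocytes to 0.59 in thin limb cells. In the same comparison Gpx1 and Prdx1 lay below 0 in 11 of 13 types each and Cat in 10, and Sod3 lay above 0 in 10. With EGT, Sod1 lay below 0 in 12 of 13 types, Gpx3 in 11, and Gpx1, Gpx4 and Prdx5 in 10 each. Prdx3 lay above 0 in 10 of 13 types with EGT. Of all genes tested in a type, 47.8% to 53.3% lay above 0 in AKI-CKD and 48.8% to 53.4% with EGT, and how many genes share a sign across types was not counted. By edgeR none of Sod1, Gpx1, Gpx3 and Gpx4 passed the adjusted threshold in any type. DESeq2 called Gpx3 in PT with EGT, and edgeR without a filter on low counts called Gpx1 in thin limb cells with EGT. Cat lay above 0 in 8 of 13 types with EGT, and its AKI-CKD + EGT mice all lay above the AKI-CKD mice in 3 of them, CD-IC, CD-PC and podocytes, as did 11.2%, 8.71% and 6.7% of all genes tested there.

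Thin limb cells, the thin part of the loop of Henle, had the lowest log2 fold change with EGT among the 13 types for 7 of the 10 enzymes, and Sod3 and Gpx1 had the lowest values there. Sod3 was 186, 241 and 285 CPM in Control, 290.1, 363 and 430.3 in AKI-CKD and 289, 161 and 126 in AKI-CKD + EGT mice. AKI-CKD lay above both other groups without overlap, but the closest values, 290.1, 289 and 285 CPM, were nearly equal. They rest on 74 UMIs in AKI-CKD mouse 1, 63 in AKI-CKD + EGT mouse 1 and 158 in Control mouse 3. Over all mice the sums of Sod3 ran from 48 to 192 UMIs. The log2 fold change of Sod3 was 0.61 (SE 0.30, edgeR adjusted p = 0.458) in AKI-CKD and -0.95 (SE 0.31, edgeR adjusted p = 0.175) with EGT. That of Gpx1 with EGT was -0.78 (SE 0.23, edgeR adjusted p = 0.140). None of the 10 enzymes was called there, against 0% of 6392 genes in AKI-CKD and 0.72% with EGT. Without a filter on low counts Gpx1 (edgeR adjusted p = 0.0285) and Sod3 (edgeR adjusted p = 0.0288) were called with EGT, when more genes were called in all, as given in the closing section. None of the 10 lay above every PT gene in these cells, and Gpx1, at a ratio of 0.586 to PT, was within them and was treated as background. Sod3, at 1.07, lay above each of the other 12 PT genes and below Napsa only, which was itself at 3.35. The 13 PT genes summed to 67267, 62685 and 139152 CPM in Control, 66042, 38238 and 101160 in AKI-CKD and 74098, 54415 and 55558 in AKI-CKD + EGT mice. The part of PT mRNA in the thin limb values was not tested. At an unadjusted p under 0.05 there was 1 enzyme in AKI-CKD and 3 with EGT, beside 11.6% and 15.4% of all genes, and DESeq2 called 0. In AKI-CKD 3 enzymes did not overlap with Control and were higher (background 8.64%), and with EGT 3 did not overlap and were lower (background 8.78%).

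Podocytes, the filter cells of the glomerulus, had the opposite signs for several enzymes, and none was called among 4794 genes tested, of which 0% were called in either comparison. At an unadjusted p under 0.05 there were 0 enzymes in AKI-CKD and 2 with EGT, beside 6.3% and 9.62% of all genes, and DESeq2 called 0. Sod2 in podocytes was 493, 474 and 456 CPM in Control, 427, 369.6 and 406 in AKI-CKD and 700.1, 623 and 568 in AKI-CKD + EGT mice. The 3 groups did not overlap, with AKI-CKD lowest and AKI-CKD + EGT highest. The sums behind Sod2 were small, 34 to 442 UMIs per mouse. The closest values of Control and AKI-CKD, 456 and 427 CPM, rest on 34 UMIs in Control mouse 3 and 74 in AKI-CKD mouse 1. The log2 fold change of Sod2 was -0.25 (SE 0.19, edgeR adjusted p = 0.809) in AKI-CKD and 0.65 (SE 0.19, edgeR adjusted p = 0.407) with EGT. Cat had a log2 fold change of 0.70 (SE 0.27, edgeR adjusted p = 0.412) with EGT, from 22 to 265 UMIs per mouse. Sod1, Sod2, Cat and Gpx1 of AKI-CKD mice lay below those of Control mice without overlap (background 5.03%), and Sod2 and Cat of AKI-CKD + EGT mice above those of AKI-CKD mice (background 6.7%). By the mean, Sod2 and Cat lay within the PT genes in podocytes and were not read as expression of these cells. The 13 PT genes summed to 92276, 107588 and 115579 CPM in Control, 75141, 35685 and 92709 in AKI-CKD and 55624, 92409 and 89022 in AKI-CKD + EGT mice. PT markers summed to 33228 to 110873 CPM in these cells and podocyte markers to 1466 to 15100. DCT markers summed there to 2074, 1965 and 775 CPM in Control, 634, 598 and 306 in AKI-CKD and 799, 1551 and 3042 in AKI-CKD + EGT mice. Endothelial markers summed to 132, 123 and 92.5, 407, 383 and 246, and 56.4, 82.0 and 44.8 CPM in turn. AKI-CKD lay below both other groups for DCT markers and above both for endothelial markers, without overlap. Mitochondrially encoded mRNA in podocytes was 52944, 35003 and 26522 CPM in Control, 21318, 15582 and 17780 in AKI-CKD and 27201, 55263 and 75812 in AKI-CKD + EGT mice, with AKI-CKD below both other groups without overlap. The part of all these values in those of the enzymes was not tested.

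The other genes of these pathways were followed in PT cells as 5 lists. Among 13 tested genes of other peroxidases and partners, 15 of thioredoxin and glutathione supply, 11 of selenoprotein synthesis, 19 of superoxide and peroxide sources and 15 of peroxisome import, none was called in either comparison. By edgeR at an unadjusted p under 0.05, 3 genes of the first list, peroxidases and their partners together, were higher and 2 lower in AKI-CKD. There 1 supply gene was lower, 1 source gene was higher, and 0 genes of the other lists passed. With EGT 2 genes of the first list were higher and 3 lower. In that comparison 2 supply genes and 1 source gene were lower, and 0 of the other lists passed. The share of all genes at that threshold was 11.4% and 15.4%. Their median log2 fold changes, in the order of the lists, were 0.24, 0.16, 0.09, 0.03 and 0.06 in AKI-CKD and -0.16, -0.23, -0.17, -0.08 and -0.12 with EGT, beside -0.01 over all genes in both.

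The genes at the ends of these lists are given without a call. Srxn1, sulfiredoxin, which repairs overoxidized peroxiredoxins, had a log2 fold change of 0.46 (SE 0.17, edgeR adjusted p = 0.385) in AKI-CKD, with 43.8 ± 5.71 CPM against 31.9 ± 6.90 in Control. Gclc, the catalytic subunit of glutathione synthesis, had -0.59 (SE 0.27) in AKI-CKD. With EGT, Sesn2, a stress-induced sestrin, had -0.58 (SE 0.17), Txn1, the cytosolic thioredoxin, -0.42 (SE 0.21) and Glrx3, a glutaredoxin, -0.45 (SE 0.16). Gpx6, Gpx7 and Gpx8 had log2 fold changes of -1.16, 1.13 and -1.20 in AKI-CKD and of 1.59, -0.91 and 1.85 with EGT. All were at group means of at most 3.01 CPM. In DCT cells Gpx6 reached group means of 40.9 to 73.9 CPM, and its signs were opposite, 0.85 (SE 0.31) and -0.87 (SE 0.30) in turn. Gpx8 had 0.47 and -0.51 there. In LOH cells the values were 0.50 and -0.51 for Gpx6 and 0.38 and -0.44 for Gpx8. None of these was called, and the part of DCT or LOH mRNA in the PT values was not tested. Among the sources in PT, Maoa, a monoamine oxidase of the mitochondrial outer membrane that makes hydrogen peroxide, had 0.64 (SE 0.21) in AKI-CKD. Pex16, a factor of peroxisome assembly, had 0.34 (SE 0.16) in AKI-CKD and -0.25 (SE 0.16) with EGT. Beside them Cdkn1a, an injury gene induced by p53, rose in AKI-CKD by a log2 fold change of 3.52 (SE 0.46, edgeR adjusted p = 0.0285) in PT, the 1 called gene of 10 injury genes.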

How the data were processed

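UMI count matrices of 9 mouse kidneys, 1 per mouse, were deposited by the authors, who processed droplet reads from poly(dT) capture to unnormalized counts per gene and barcode with PISA, per the file headers. The build was GRCm39 per the submitters' processing notes, and the aligner and annotation version are not given in the sources used here. Replicates are separate mice. Doses, times and ages are those of the study's methods.

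A barcode was kept if its UMIs reached 1000 and its detected genes 500 and if no more than 15% of the UMIs were mitochondrial, without removing doublets, which were left out by score (6% per library) in an alternative. Cells were clustered on 2000 variable genes, without the enzymes and the lists, by 30 components, a Harmony correction by library, 20 neighbours and a resolution of 1.1 (igraph 0.11.9, scikit-learn 1.9.0, numpy 2.4.6). A cluster of at least 50 cells was named where at least 3 markers of a type were raised at least 2-fold, its 10 leading genes did not hold more markers of another type, and fewer than 2 of them were haemoglobin genes. UMIs were summed per mouse and type, types with fewer than 10 cells in a mouse being left out, and were tested with edgeR 4.0.16 in R 4.3.3 (TMM, filterByExpr, quasi-likelihood F test, Benjamini-Hochberg over all genes), with all 9 mice in one fit. DESeq2 1.42.0 and the other settings named in the closing section were alternatives. The interaction of type and group used the mouse as a block. The scripts were tested on simulated data. There were 0 columns of per-sample values without a sample.

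The 10 enzymes are all named. Genes of other lists could be named where called, or among the 2 highest or 2 lowest log2 fold changes of their list in PT. Those the text describes were picked from these after their values were seen, so not every called gene is named. The genes most like an enzyme are the 2 of highest r, of which 1 is not reported here. The enzymes, lists and tests were chosen with earlier results of these data known. P-values rest on 3 mice per group.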

Additional observations from a re-analysis of the deposited data

Results flagged for a closer look

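The test of the difference between cell types put 3 values here. The log2 fold change of AKI-CKD + EGT over AKI-CKD mice was higher in LOH than in PT cells by 0.58 for Cat (SE 0.14, edgeR adjusted p = 0.0238), by 0.51 for Gpx1 (SE 0.13, edgeR adjusted p = 0.0294) and by 0.50 for Gpx3 (SE 0.14, edgeR adjusted p = 0.0448). Each was measured in 9 mice with the mouse as a block. The LOH levels of Gpx1 and Gpx3 were at or near the background of PT mRNA and were not read as expression of LOH cells. The 13 genes that mark PT differed in the same direction, by 0.40 to 0.66 with a median of 0.53, and the part of PT mRNA in the LOH droplets was not tested. With 1 mouse left out the value ran from 0.46 to 0.68 for Cat, from 0.39 to 0.65 for Gpx1 and from 0.34 to 0.70 for Gpx3. Gpx3 was not called with library sizes that leave out mitochondrial, ribosomal protein and Malat1 counts (0.51, edgeR adjusted p = 0.0633).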

How the results depend on the processing

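The log2 fold changes of the 10 enzymes in PT, LOH and DCT kept their sign and their side of the threshold in 458 of 480 values under other settings and in 485 of 540 with a mouse left out. The numbers of enzymes called were equal or within 1.5 times in 262 of 274 and 310 of 324. The main number was 0 except for 1 in CD-IC and 3 in LOH minus PT, both with EGT. These shares thus mostly set 0 beside 0 and say little on how firm a call is. The levels in the highest type moved by less than 1 SD in 30 of 30. No PT value changed sign under any setting other than leaving out a mouse. DESeq2 called 1 enzyme, Gpx3, with EGT in PT, and 1 each in all kept cells, PT-S1 and PT-S3, and it called 449 genes in PT where edgeR called 0. Cat in CD-IC with EGT was 1 call, and there were 0 with a replicate block, with a mitochondrial limit of 10% and with clusters made without Harmony, and the genes called there were 373 in all and 46 with the block. With a mouse left out the number of enzymes was 0 to 2. Without a filter on low counts 2 enzymes were called in thin limb cells with EGT, and 356 genes in all against 46. Correlations of deviations from the group means ran from -0.427 to 0.329 between mice of the same replicate number. They ran from -0.330 to 0.423 between mice of other numbers. With 3 mice per group these values cannot settle whether the numbers pair mice. Besides that of Cat in CD-IC, the block changed no call of an enzyme.

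For the difference between LOH and PT, all 7 kinds of alternative were chosen after seeing the data. In AKI-CKD against Control 3 enzymes were called without a filter on low counts, 3 without the cells of highest doublet score and 3 with only the 6 mice compared, and 0 to 3 with a mouse left out. With EGT it was 0 to 5 with a mouse left out, and Gpx3 lost its call (0.51, edgeR adjusted p = 0.0633) with library sizes that leave out mitochondrial, ribosomal protein and Malat1 counts. For DCT minus PT with EGT it was 2 without a filter and 0 to 1 with a mouse left out, and in AKI-CKD against Control the difference turned above 0 without Harmony for Prdx1 (0.0199) and Prdx5 (0.00236).

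In DCT and LOH, where AKI-CKD stands for AKI-CKD against Control and EGT for AKI-CKD + EGT against AKI-CKD, some signs turned under other settings. With DESeq2 the log2 fold change was 0.00405 for Sod2 in DCT (AKI-CKD). With library sizes that leave out mitochondrial, ribosomal protein and Malat1 counts the log2 fold change was 0.00266 for Sod2 in DCT (AKI-CKD). With the replicate block the log2 fold change was 0.00233 for Sod2 and -0.0292 for Sod3 in DCT (AKI-CKD). With the mitochondrial limit of 10% the log2 fold change was 0.0145 for Sod2 and 0.0207 for Gpx3 in DCT (AKI-CKD). With clusters made without Harmony the log2 fold change was 0.0852 for Sod2 and 0.12 for Gpx3 in DCT (AKI-CKD), -0.0575 for Sod2 and -0.0572 for Prdx1 in DCT (EGT), -0.0317 for Prdx5 in LOH (AKI-CKD) and 0.0236 for Sod1, 0.0901 for Gpx3 and 0.0805 for Gpx4 in LOH (EGT). Without Harmony the types were not the same cells, with 23476 cells in LOH against 7262, 8347 in DCT against 12688 and 90016 in PT against 155230, and a LOH cluster of 18910 cells was 42.7% from 1 library. With no filter on low counts the log2 fold change was -0.00608 for Sod3 in DCT (AKI-CKD). Without the cells of highest doublet score the log2 fold change was -0.11 for Sod3 in DCT (AKI-CKD), 0.18 for Gpx3 and 0.00714 for Gpx4 in DCT (EGT) and 0.0568 for Gpx1, 0.17 for Gpx3 and 0.0381 for Gpx4 in LOH (EGT).

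With each mouse left out in turn, the values that changed sign ran over the following ranges of log2 fold change, from lowest to highest. In DCT, AKI-CKD against Control, they were -0.0522 to 0.0515 for Sod2, -0.40 to 0.23 for Sod3, -0.18 to 0.26 for Gpx3 and -0.0851 to 0.14 for Prdx5. In DCT, AKI-CKD + EGT against AKI-CKD, they were -0.10 to 0.10 for Sod2, -0.0659 to 0.56 for Sod3, -0.34 to 0.22 for Gpx1, -0.17 to 0.0591 for Gpx3, -0.12 to 0.11 for Gpx4, -0.0626 to 0.18 for Prdx1, -0.18 to 0.42 for Prdx3 and -0.18 to 0.00323 for Prdx5. In LOH, AKI-CKD against Control, they were -0.11 to 0.0245 for Sod2, -0.21 to 0.0876 for Sod3, -0.24 to 0.12 for Gpx3 and -0.14 to 0.16 for Prdx5. In LOH, AKI-CKD + EGT against AKI-CKD, they were -0.0155 to 0.19 for Sod2, -0.0158 to 0.26 for Sod3, -0.24 to 0.14 for Gpx1, -0.0899 to 0.0409 for Gpx3, -0.17 to 0.11 for Gpx4 and -0.23 to 0.0112 for Prdx5. In PT, AKI-CKD against Control, they were -0.0484 to 0.24 for Cat, -0.0806 to 0.16 for Gpx1, -0.24 to 0.0622 for Prdx1, -0.0602 to 0.23 for Prdx3 and -0.0402 to 0.36 for Prdx5. In PT, AKI-CKD + EGT against AKI-CKD, they were -0.32 to 0.0723 for Sod2, -0.28 to 0.11 for Cat, -0.38 to 0.050 for Prdx1 and -0.42 to 0.25 for Prdx3. The cause of these moves was not tested. The sums behind a value in LOH went down to 67 UMIs of Prdx3 and 129 of Sod3 in a mouse, and how far depth limited the values was not tested.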

Other observations

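The cluster of 5471 cells led by haemoglobin mRNA and that of 436 cells led by interferon-induced mRNA, both unnamed, entered no comparison of the enzymes by cell type. They were part of the sums over all kept cells, where the enzymes had a median log2 fold change of 0.08 in AKI-CKD against Control and of -0.31 in AKI-CKD + EGT against AKI-CKD. Each enzyme lay below 0 with EGT in all kept cells, and 9 of the 10 lay above 0 in AKI-CKD. Of all genes, 48.8% lay above 0 with EGT and 50.2% in AKI-CKD. By edgeR no enzyme was called there, the lowest adjusted p being 0.343 with EGT and 0.668 in AKI-CKD. PT cells were 78.8% of the kept cells and both comparisons share the AKI-CKD mice, so these values largely repeat those of PT.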
